A study of Mus musculus with 8 samples.

Results

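The guanylate-binding proteins (GBPs) examined here are the 8 genes Gbp2, Gbp3, Gbp4, Gbp5, Gbp6, Gbp7, Gbp8 and Gbp9, taken by name from the 54532 genes counted by RNA-Seq in mouse bone marrow-derived macrophages (BMDMs). BMDMs are macrophages grown from marrow, here from mice aged 6 to 8 weeks, for 7 days in medium holding supernatant of L929 cells. The study asked how STING antagonists act on the transcripts that rise when the DNA exonuclease Trex1 is missing, since Trex1 removes cytosolic DNA that would otherwise engage cGAS and STING. The 8 libraries form 4 groups of 2, namely wild-type BMDMs with vehicle (WT), Trex1-/- BMDMs with vehicle (Trex1-KO), Trex1-/- BMDMs with H151, and Trex1-/- BMDMs with SN-011. Vehicle was DMSO, all incubations lasted 12 h, and H151 was given at 500 nM. For SN-011 the labels give no dose and the methods of the study give the same dose as for H151. The Trex1-/- mice are germline knockouts bred from heterozygous parents, so the allele is not restricted to one cell type. The study states that wild-type mice were purchased, so in comparisons with WT the genotype cannot be told apart from the source of the mice. The study describes the libraries of a group as independent experiments. The labels do not say whether they came from separate mice or cultures, and p-values therefore measure only the spread between these libraries.

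GBPs are large GTPases of the dynamin superfamily. Interferons, above all interferon-γ, induce them in macrophages, where they assemble on the membranes of intracellular bacteria and parasites and on the vacuoles around them, and help to open these membranes. They thereby give bacterial lipopolysaccharide access to caspase-11, and bacterial DNA access to AIM2. In the mouse the genes lie in 2 clusters. On genome build GRCm38, Gbp5 (ENSMUSG00000105504, 142493978 to 142522344), Gbp7 (ENSMUSG00000040253, 142530342 to 142550149), Gbp3 (ENSMUSG00000028268, 142560026 to 142573209) and Gbp2 (ENSMUSG00000028270, 142620602 to 142638008) lie on the forward strand of chromosome 3. On the reverse strand of chromosome 5 lie Gbp8 (ENSMUSG00000034438, 105014150 to 105139540), Gbp9 (ENSMUSG00000029298, 105077630 to 105139539), Gbp4 (ENSMUSG00000079363, 105115767 to 105139586) and Gbp6 (ENSMUSG00000104713, 105270702 to 105293698). Gbp8, Gbp9 and Gbp4 share a first exon of about 60 bases, and the rest of their exons are separate. The coding sequences of the chromosome 5 members are close relatives, with 89.6% to 92.9% of aligned bases identical over 6 pairs. On chromosome 3 the same measure ran from 60.3% to 78.3% over 6 pairs, and between chromosomes from 61.0% to 75.0% over 16 pairs.

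**Figure D1:**
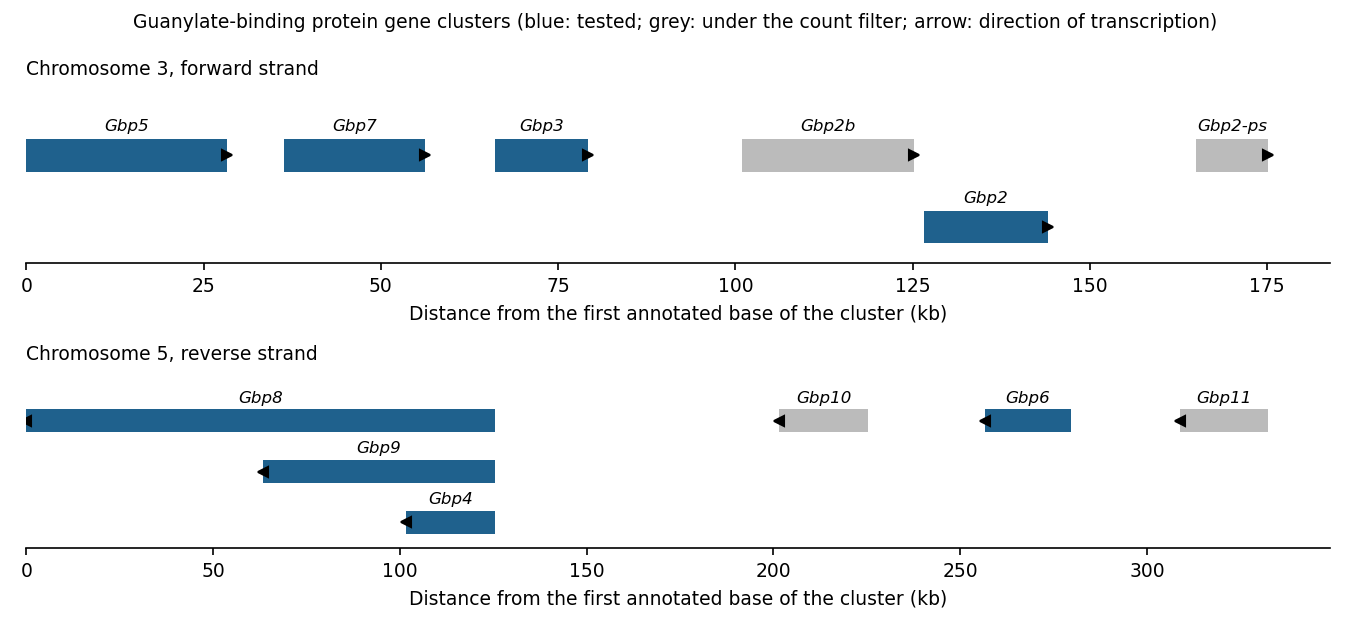
Map of the GBP gene clusters on chromosome 3 and chromosome 5, with the distance from the first annotated base of each cluster in kb on the x axis. Blue bars are the 8 genes that passed the count filter, grey bars are other Gbp genes that did not, and arrows give the direction of transcription; Gbp8, Gbp9 and Gbp4 start at the same place.

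The chromosome 3 members have promoter entries in RefSeq (GRCm38.p6), and stretches of them are shown because they hold the motifs through which interferon-activated factors are known to act. In the lines below, capitals mark matches to GAAA, any 2 bases, then GAAA (called the IRF motif below), the core of the element bound by IRF factors, or to TTCNNNGAA, an element found in promoters that interferon-γ activates, both searched on both strands. All sequences are on the forward strand, written 5′ to 3′. Those of Gbp2 (chr3:142620533-142620623), Gbp3 (chr3:142559934-142560034), Gbp7 (chr3:142530206-142530335) and Gbp5 (chr3:142496744-142496903) follow.
Gbp2: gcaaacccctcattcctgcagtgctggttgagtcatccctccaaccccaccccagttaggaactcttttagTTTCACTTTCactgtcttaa
Gbp3: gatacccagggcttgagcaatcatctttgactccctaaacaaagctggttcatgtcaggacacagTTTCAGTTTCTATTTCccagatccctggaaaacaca
Gbp7: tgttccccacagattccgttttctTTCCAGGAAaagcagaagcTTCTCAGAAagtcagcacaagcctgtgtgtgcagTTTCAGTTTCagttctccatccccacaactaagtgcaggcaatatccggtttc
Gbp5: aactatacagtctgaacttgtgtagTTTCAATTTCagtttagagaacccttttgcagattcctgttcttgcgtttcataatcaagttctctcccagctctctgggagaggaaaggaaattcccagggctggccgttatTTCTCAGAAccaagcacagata
In each of these 4 promoters the IRF motif was found on the reverse strand. Gbp3 has 2 promoters in the RefSeq table, and the one not shown held neither motif. Positions here are counted from the start in the RefSeq table, which is not the first base of the gene given above. That start is at 142620663 in Gbp2, 142560044 in Gbp3, 142530336 in Gbp7 and 142496934 in Gbp5, and so lies 61, 18 and 2956 bases inside the gene as given above for Gbp2, Gbp3 and Gbp5 and 6 bases before it for Gbp7. The match began 59 bases before this start in Gbp2, 53 in Gbp7 and 165 in Gbp5, and Gbp3 held 2 matches, 45 and 39 bases before it, that overlap each other. TTCNNNGAA was found in Gbp7, beginning 106 and 87 bases before the start, and in Gbp5, beginning 245 bases (outside the stretch shown) and 52 bases before it. No match to TTCNNNGAA lay in the windows of Gbp2 and Gbp3. No match of one motif overlapped a match of the other. Of 32851 promoters of the same length (250 bases before to 50 after the start), 3.44% held the IRF motif, 8.3% held TTCNNNGAA and 0.454% held both. A match is a description of the letters and not evidence that a factor binds. Promoters of Gbp4, Gbp6, Gbp8 and Gbp9 were not analysed here.

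The libraries held between 11845470 and 17284863 counts, and 1 count was worth 0.0582 to 0.0849 CPM, the depth-scaled unit used here, in which library sizes are adjusted by TMM. All 8 members passed the filter on low counts, as did 14591 genes in all. Trex1 itself had 0 counts in all 8 libraries, WT included, so the genotype rests on the labels. All 1147 bases of its exons lie within exons of Atrip, and of the 1228 genes that lie wholly within exons of other genes 31 had any count. The summed level of 7 macrophage markers ran from 29638 to 31878 CPM over the 8 libraries, and among them Fcgr1, which interferons induce, rose by 1.14 on the log2 scale in Trex1-KO (FDR = 2.66e-07), Cd68 by 0.44 (FDR = 0.000208) and Adgre1 by 0.19 (FDR = 0.0249). The T and NK cell markers (6 genes) summed to at most 0.510 CPM and the B cell markers (3 genes) to at most 0.791 CPM. Neutrophil markers (4 genes) summed to 0.294 to 0.474 CPM in WT and to 3.90 to 8.83 CPM in the Trex1-KO groups, mostly from Camp, with Ly6g at up to 0.255 CPM. Dendritic cell markers (5 genes) summed to 1.49 to 2.96 CPM, with Cd209a at 0. Among them Xcr1 had 1 to 3 counts per library in WT and a mean of 1.10 CPM in Trex1-KO, 1.25 with H151 and 0.789 with SN-011, and was called higher than WT in all 3 groups (FDR 0.00736 to 0.045), while Zbtb46 was at 0.401 times in Trex1-KO (FDR = 0.0951). Fibroblast markers (4 genes, mostly Col1a1 and Col1a2) summed to 1962 to 2140 CPM in WT and to 802 to 1143 CPM in the Trex1-KO groups. Dcn, of the same list, went the other way without passing the test. It was at 1.37 times WT in Trex1-KO, 1.47 times with H151 and 1.55 times with SN-011. The part of these transcripts, some of which moved with genotype, in the comparisons with WT was not tested. In bulk RNA, fewer cells of a type and less RNA per cell cannot be told apart.

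GBP transcripts made up a small part of the macrophage RNA, and that part was larger without Trex1. Summed over the 8 genes, they reached 219 and 182 CPM in WT, 487 and 469 in Trex1-KO, 240 and 291 with H151, and 247 and 273 with SN-011. The mean ± SD (n = 2) was 200.2 ± 26.1 for WT, 478 ± 12.5 for Trex1-KO, 265.6 ± 36.2 for H151 and 259.7 ± 18.3 for SN-011. Both antagonist groups lay between the WT and Trex1-KO groups, and none of their libraries reached either.

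Per kb of exons not shared with another gene, Gbp2, Gbp9, Gbp3 and Gbp7 lay above Gbp5, Gbp6, Gbp8 and Gbp4 in every library. In Trex1-KO, Gbp2 was highest at 34.3 ± 2.38 CPM per kb, followed by Gbp9 at 28.7 ± 1.07, Gbp3 at 21.2 ± 1.496, Gbp7 at 17.2 ± 1.05, Gbp5 at 6.80 ± 0.744, Gbp6 at 5.14 ± 0.147, Gbp8 at 4.89 ± 0.418 and Gbp4 at 1.09 ± 0.124 CPM per kb (SD, n = 2). In this order, Gbp6 and Gbp8 were the only neighbours whose libraries overlapped in Trex1-KO. In WT, Gbp2 (11.4 and 18.5 CPM per kb) overlapped with Gbp9 (11.3 and 11.6), Gbp5 overlapped with Gbp8, and Gbp6 overlapped with Gbp4. Gbp7 ranked above Gbp3 in WT, at 9.82 and 10.2 against 7.54 and 8.86 CPM per kb, and below it in Trex1-KO. With SN-011 the first place passed to Gbp9, at 17.8 and 18.8 CPM per kb, from Gbp2, at 13.0 and 16.9, while Gbp3 and Gbp7 overlapped. With H151 the libraries of Gbp8, Gbp5 and Gbp6 overlapped, and with SN-011 those of Gbp5 and Gbp6. The share of Gbp6 in the summed level per kb went from 0.593% in WT to 4.31% in Trex1-KO, 3.46% with H151 and 3.97% with SN-011, and that of Gbp7 from 20.3% in WT to 14.4% in Trex1-KO. A smaller share of reads can be assigned to Gbp6 than to the other members. Its level per kb leaves out the exonic bases annotated as shared with Gm43302. It is not corrected for other identical stretches, so the place of Gbp6 in the order is uncertain. Of its stretches of read length (150 bases), 59.1% also occur in Gbp10 or Gm43302, against 8.77% for Gbp7 (with Gm43802) and at most 0.0254% for the other 6 genes.

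**Figure D2:**
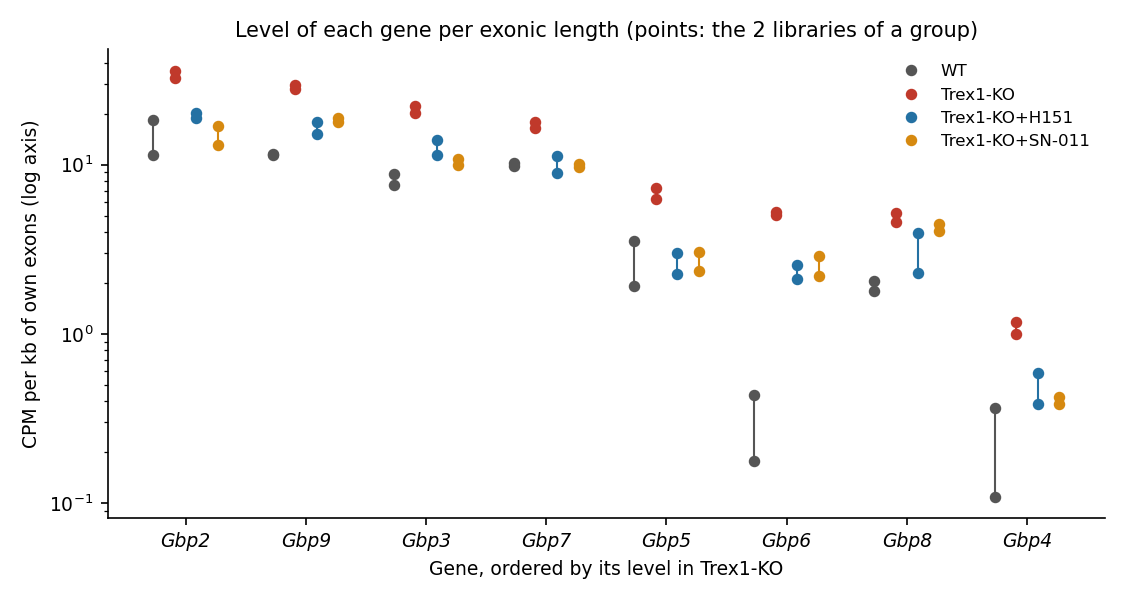
CPM per kb of own exons (y axis, log scale) of each GBP gene (x axis, ordered by its mean in Trex1-KO), with points for the 2 libraries of a group joined by a line. Gbp2, Gbp9, Gbp3 and Gbp7 lie above the other genes in every group, and Gbp6 in WT lies far below its level in the Trex1-KO groups.

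The first comparison, Trex1-KO against WT, asks how these transcripts differ in cells that lack the exonuclease. All 8 GBP genes were higher in Trex1-KO, by 1.72-fold for Gbp7 to 17.0-fold for Gbp6, and no library of one group overlapped the other for any of them. Over all tested genes, 9.27% were called higher at an FDR under 0.05 (16.4% in either direction), and 28.6% had both Trex1-KO libraries above both WT libraries. The median log2 fold change of the 8 genes was 1.33, against -0.00 over all tested genes. Scaling to total counts alone moved the share of higher genes among all calls from 56.6% to 37.2% and left all 8 GBP genes called higher. Leaving out any 1 of the 4 libraries compared also left all 8 called. Here and below, a group left with 1 library is assumed to vary like the other groups, which alone supply the spread. Gbp2, Gbp3, Gbp6, Gbp7 and Gbp9 belong to M7core, the STING-dependent gene set of the study, and Gbp5 to its parent module, which the study singled out partly for its rise in Trex1-/- BMDMs, so their direction is not independent of that choice.

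Gbp6, the member with the largest rise, had 1.84 and 0.746 CPM in WT (25 and 11 counts), 21.3 and 22.2 in Trex1-KO, 8.88 and 10.8 with H151, and 9.25 and 12.1 with SN-011. WT was thus far below all other libraries and the antagonist groups lay in between. The log2 fold change in Trex1-KO was 4.08 ± 0.27 (SE, FDR = 1.42e-07 by edgeR), and with the WT counts this low it depended on the WT library used, at 4.83 without WT replicate 1 and 3.54 without WT replicate 2.

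Gbp4, also on chromosome 5 and the least abundant member per length, had 2.72 and 0.813 CPM in WT, 7.47 and 8.77 in Trex1-KO, 2.85 and 4.37 with H151, and 2.85 and 3.14 with SN-011. Its WT libraries were the furthest apart in ratio of any member, and the Trex1-KO libraries stood well above all others. The log2 fold change was 2.22 ± 0.36 (FDR = 0.000658), with 3.29 and 1.56 when WT replicate 1 or WT replicate 2 was left out.

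Gbp9, the chromosome 5 member with the most counts, had 57.9 and 59.4 CPM in WT, 143 and 150.8 in Trex1-KO, 77.3 and 91.0 with H151, and 90.8 and 96.1 with SN-011. The libraries of a group lay close together for this gene, and the Trex1-KO values stood apart from all others. It rose by 1.32 ± 0.08 on the log2 scale (FDR = 6.15e-08). Gbp8 had 6.99 and 6.10 CPM in WT, 15.5 and 17.5 in Trex1-KO, 7.74 and 13.4 with H151, and 15.1 and 13.7 with SN-011. For Gbp8 the H151 libraries were far apart and the SN-011 libraries were just under those of Trex1-KO. Its rise in Trex1-KO was 1.34 ± 0.21 (FDR = 0.000516).

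Among the chromosome 3 genes, Gbp2, a lipid-anchored GBP that coats pathogen vacuoles, had 46.0 and 28.4 CPM in WT, 89.6 and 81.2 in Trex1-KO, 46.9 and 50.2 with H151, and 32.5 and 42.2 with SN-011. The Trex1-KO libraries were alone at the top, and both WT and SN-011 libraries spread widely. The log2 fold change in Trex1-KO was 1.20 ± 0.17 (FDR = 0.000171). Gbp5, which is lipid-anchored as well and has been tied to the NLRP3 inflammasome, had 23.6 and 12.8 CPM in WT, 48.6 and 41.6 in Trex1-KO, 15.1 and 19.8 with H151, and 15.5 and 20.3 with SN-011. Its antagonist libraries fell within the WT range. The rise in Trex1-KO was 1.32 ± 0.21 (FDR = 0.000635).

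Gbp3 had 28.9 and 24.6 CPM in WT, 72.6 and 65.7 in Trex1-KO, 37.1 and 45.7 with H151, and 32.7 and 35.1 with SN-011. Every antagonist library lay above both WT libraries and below both Trex1-KO libraries. Its log2 fold change in Trex1-KO was 1.37 ± 0.11 (FDR = 1.28e-06). Gbp7, which has been linked to oxidative killing of bacteria, had 50.6 and 48.9 CPM in WT, 89.1 and 81.7 in Trex1-KO, 44.2 and 56.0 with H151, and 48.1 and 50.0 with SN-011. It had the smallest rise of the family, 0.78 ± 0.10 (FDR = 7.01e-05), and the antagonist libraries lay around the WT values.

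**Figure D3:**
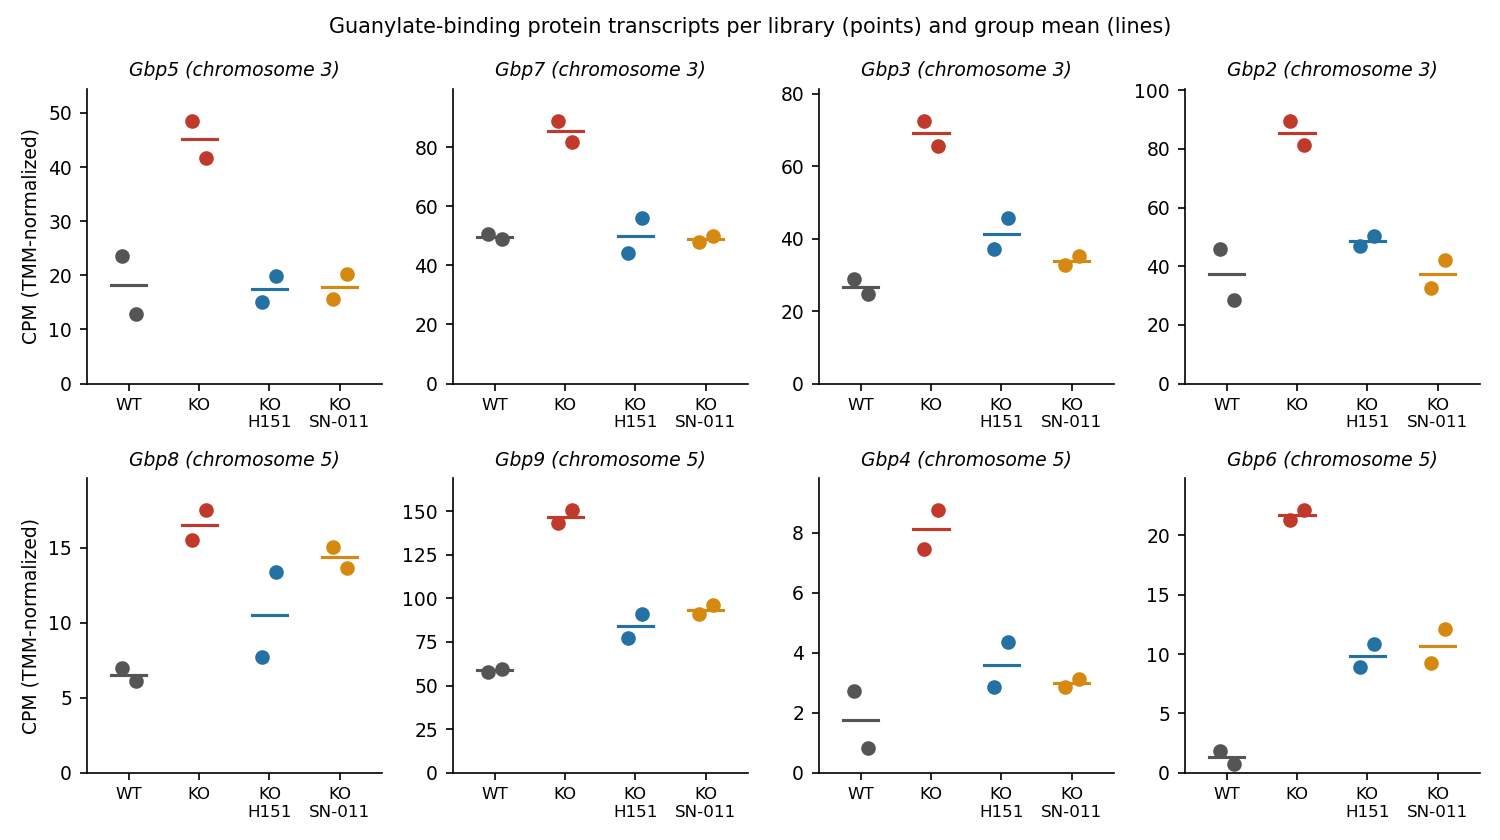
CPM (y axis, from 0) of each GBP gene in each library (points) with the group mean (line), for WT, Trex1-KO (KO), and Trex1-KO with H151 or SN-011 (2 libraries each). The 2 Trex1-KO libraries are the highest for every gene, and Gbp8 with SN-011 stays closest to them.

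The second comparison asks how far each STING antagonist lowered the GBP transcripts in Trex1-KO BMDMs. The comparisons with vehicle share the 2 Trex1-KO libraries, so their values are given side by side. The SN-011 libraries carry sample numbers far from those of the other groups, with no vehicle or WT library beside them. The labels do not say whether all groups were run together. In every comparison with SN-011, a difference between runs therefore cannot be told apart from the compound. With H151, 6 of the 8 genes were lower than with vehicle, against 2.23% of all tested genes called (1.84% lower). With SN-011, 7 of the 8 were lower, against 2.33% called (2.22% lower). The median log2 fold change of the members was -0.81 with H151 and -1.03 with SN-011, against 0.00 and 0.01 over all genes. For all 8 genes and both compounds, the 2 treated libraries lay below the 2 vehicle libraries, as they did for 17.9% of all genes with H151 and 21.6% with SN-011.

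The largest falls were seen on the log2 scale in Gbp5, with -1.36 ± 0.21 for H151 (FDR = 0.00258) and -1.35 ± 0.21 for SN-011 (FDR = 0.0027), and in Gbp4 with SN-011, -1.45 ± 0.33 (FDR = 0.0359). Gbp4 gave -1.15 ± 0.32 with H151, which did not pass (FDR = 0.116). Gbp6 fell by 1.13 on the log2 scale with H151 (FDR = 0.00475) and by 1.04 with SN-011 (FDR = 0.00883), to 0.455 and 0.487 times its vehicle level. Gbp2 fell to 0.569 times with H151 (95% interval 0.446 to 0.726, FDR = 0.0152) and to 0.434 times with SN-011 (0.338 to 0.556, FDR = 0.000896). Gbp3 fell to 0.601 times (0.512 to 0.707, FDR = 0.00143) and 0.489 times (0.415 to 0.577, FDR = 0.000101). Both genes lie in the chromosome 3 cluster and were lower with SN-011 than with H151 in every library. Gbp7 fell to 0.588 times with H151 (FDR = 0.000404) and 0.574 times with SN-011 (FDR = 0.000324). Gbp9 fell to 0.574 times with H151 (FDR = 3.55e-05) and 0.635 times with SN-011 (FDR = 0.00022).

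Gbp8 was the member that passed this test with neither compound. It reached 0.645 times the vehicle level with H151 (95% interval 0.478 to 0.869, FDR = 0.193) and 0.871 times with SN-011 (0.653 to 1.16, FDR = 0.734). The H151 libraries pulled apart for this gene, and without H151 replicate 2 its log2 fold change was -1.10 (FDR = 0.00275, from 1 H151 library). With every gene of at least 1 count tested, Gbp8 (FDR = 0.00491) and Gbp4 (FDR = 5.32e-05) were also called lower with H151. FDRs of that edgeR fit are not comparable with those of the main fit. For Gbp9 in Trex1-KO against WT, that fit gave an FDR of 1.35e-57, against 6.15e-08, at near-equal log2 fold changes (1.31 and 1.32). The exact test of edgeR called Gbp4 lower with H151 (FDR = 0.022). Some calls rested on 1 library. Gbp4 lost its SN-011 call when any of the 4 libraries was left out (FDR 0.0666 to 0.376). Without SN-011 replicate 1, Gbp5 (FDR = 0.11) and Gbp6 (FDR = 0.242) lost theirs as well, which left 4 members called. Gbp2 lost its H151 call without Trex1-KO replicate 1 (FDR = 0.0691) and by the Wald test of DESeq2 (FDR = 0.101).

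**Figure D4:**
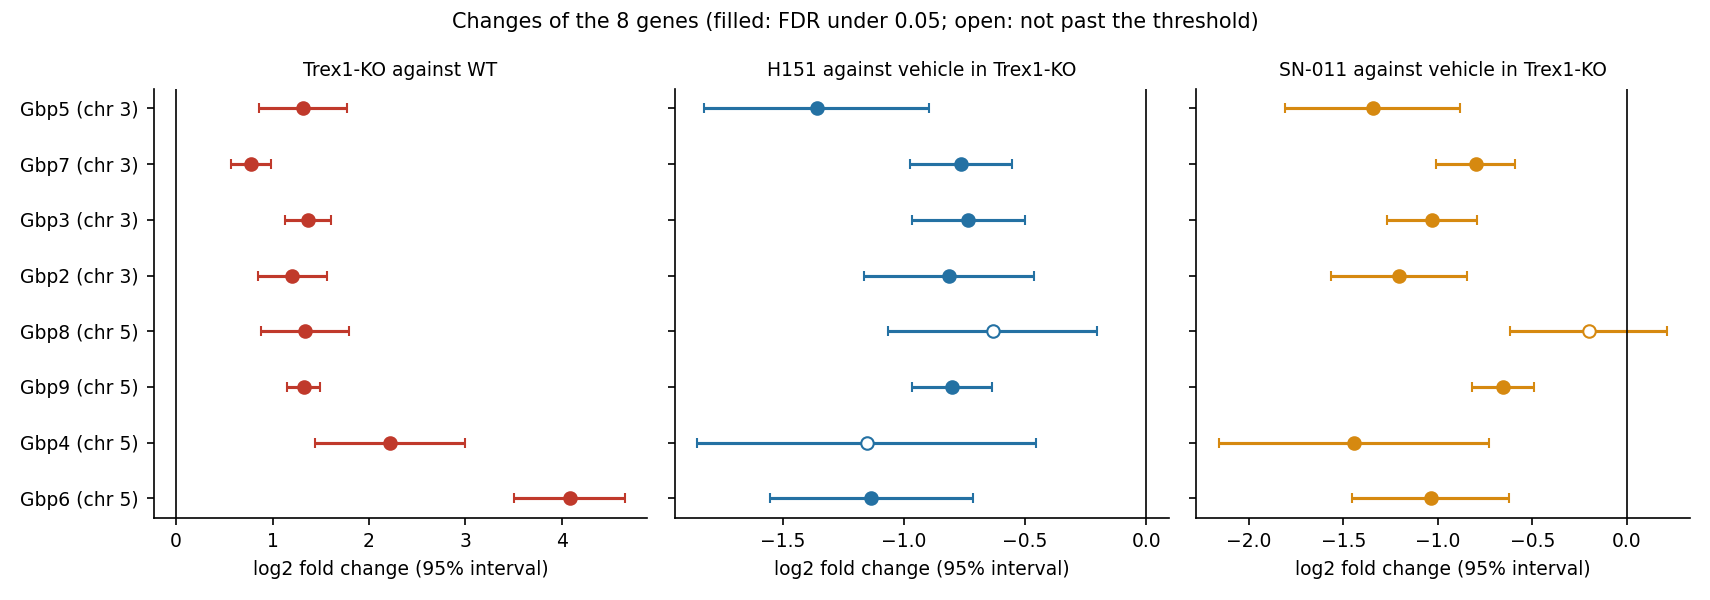
Log2 fold change (x axis) with its 95% interval for each GBP gene (y axis, grouped by chromosome) in Trex1-KO against WT, H151 against vehicle and SN-011 against vehicle. Filled points passed an FDR of 0.05; all 8 genes lie above 0 in the first panel and below 0 in the others, and the open points are Gbp8 for both compounds and Gbp4 for H151.

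When the compounds were compared with each other, no member passed the test (SN-011 against H151, FDR 0.494 to 0.992 by edgeR), with 0.158% of all genes called. At an unadjusted p under 0.05, 2 members and 8.89% of all genes passed. Those were Gbp3, at 0.814 times the H151 level with SN-011 (95% interval 0.687 to 0.964), and Gbp2, at 0.762 times (0.589 to 0.985). Gbp8 pointed the other way, at 1.35 times (0.998 to 1.83). Both SN-011 libraries lay beyond both H151 libraries for these 3 genes, below for Gbp2 and Gbp3 and above for Gbp8. Over all genes, 20% lay below and 19.7% above in that sense. For Gbp7 and Gbp9 the intervals of the ratio were narrow, 0.839 to 1.13 and 0.984 to 1.24, while for Gbp4 the interval of 0.473 to 1.41 leaves room for a difference in either direction. Without H151 replicate 2 the SN-011 level of Gbp8 exceeded that with H151 by 0.90 on the log2 scale (FDR = 0.0277, from 1 H151 library), the only member called in any of these fits with a library left out. The DESeq2 Wald test and the exact test of edgeR called 38 and 84 genes in this comparison and no member. With every gene of at least 1 count tested, Gbp2 was called lower with SN-011 (FDR = 0.00862), in the fit whose FDRs are not comparable with the main fit.

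The last comparison sets the treated Trex1-KO cells beside WT and shows how much of the rise was left. With each compound 3 of the 8 genes were still higher than in WT, against 11.8% of all genes called with H151 (6.79% higher) and 11.7% with SN-011 (6.18% higher). Gbp6 and Gbp9 were called with both compounds, Gbp3 with H151 and Gbp8 with SN-011. Both treated libraries lay above both WT libraries for 6 members with H151 and for 5 with SN-011, as for 26.7% and 28.8% of all genes. Scaling to total counts moved the share of higher genes among all calls from 57.4% to 41.7% with H151 and from 52.6% to 40.3% with SN-011, and the number of members called stayed at 3 in each. With every gene of at least 1 count tested, 6 members were called with H151 and 4 with SN-011, at FDRs not comparable with the main fit.

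Of the chromosome 3 members, Gbp5 and Gbp7 with either compound and Gbp2 with SN-011 overlapped with WT. Gbp7 was at 1.01 times the WT level with H151 (95% interval 0.869 to 1.17) and 0.985 times with SN-011 (0.848 to 1.15). Gbp5 was at 0.970 times (0.687 to 1.37) and 0.980 times (0.695 to 1.38), with wider intervals. Gbp2 was at 1.31 times with H151 (1.01 to 1.69, FDR = 0.181) and 0.998 times with SN-011 (0.769 to 1.30). Gbp3 was at 1.55 times with H151 (1.31 to 1.85, FDR = 0.0023) and 1.26 times with SN-011 (1.06 to 1.51, FDR = 0.0857), and the latter was called in a fit of only the groups compared (FDR = 0.0267).

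The chromosome 5 members stood above WT with both compounds in every library, as did Gbp3 of the chromosome 3 members. For Gbp4 the margin was small, with the lowest treated library at 2.85 CPM and the higher WT library at 2.72 CPM. Gbp6 was still 7.72 times the WT level with H151 (5.01 to 11.9, FDR = 1.64e-05) and 8.26 times with SN-011 (5.38 to 12.7, FDR = 1.08e-05). On the log2 scale these differences were 3.70 and 3.80 without WT replicate 1, and 2.41 and 2.51 without WT replicate 2. Gbp9 was at 1.44 times (1.27 to 1.62, FDR = 0.000646) and 1.59 times (1.41 to 1.79, FDR = 8.63e-05). Gbp8 was at 1.63 times with H151 (1.17 to 2.27, FDR = 0.0561) and 2.20 times with SN-011 (1.60 to 3.04, FDR = 0.00284). The exact test of edgeR called Gbp8 with H151 (FDR = 0.021), as did the replicate block. Gbp4 was at 2.09 times (1.15 to 3.80, FDR = 0.112) and 1.71 times (0.927 to 3.15, FDR = 0.297), neither past the threshold. On the log2 scale its differences were 2.14 and 1.85 without WT replicate 1, and 0.41 and 0.12 without WT replicate 2. Without WT replicate 1, which had the higher level of Gbp2 and Gbp4, Gbp2 (FDR = 0.00832) and Gbp4 (FDR = 0.00887) were also called with H151 and Gbp4 with SN-011 (FDR = 0.0236). Whether the clusters differ as clusters was not tested, since the genes of a cluster are not replicates.

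**Figure D5:**
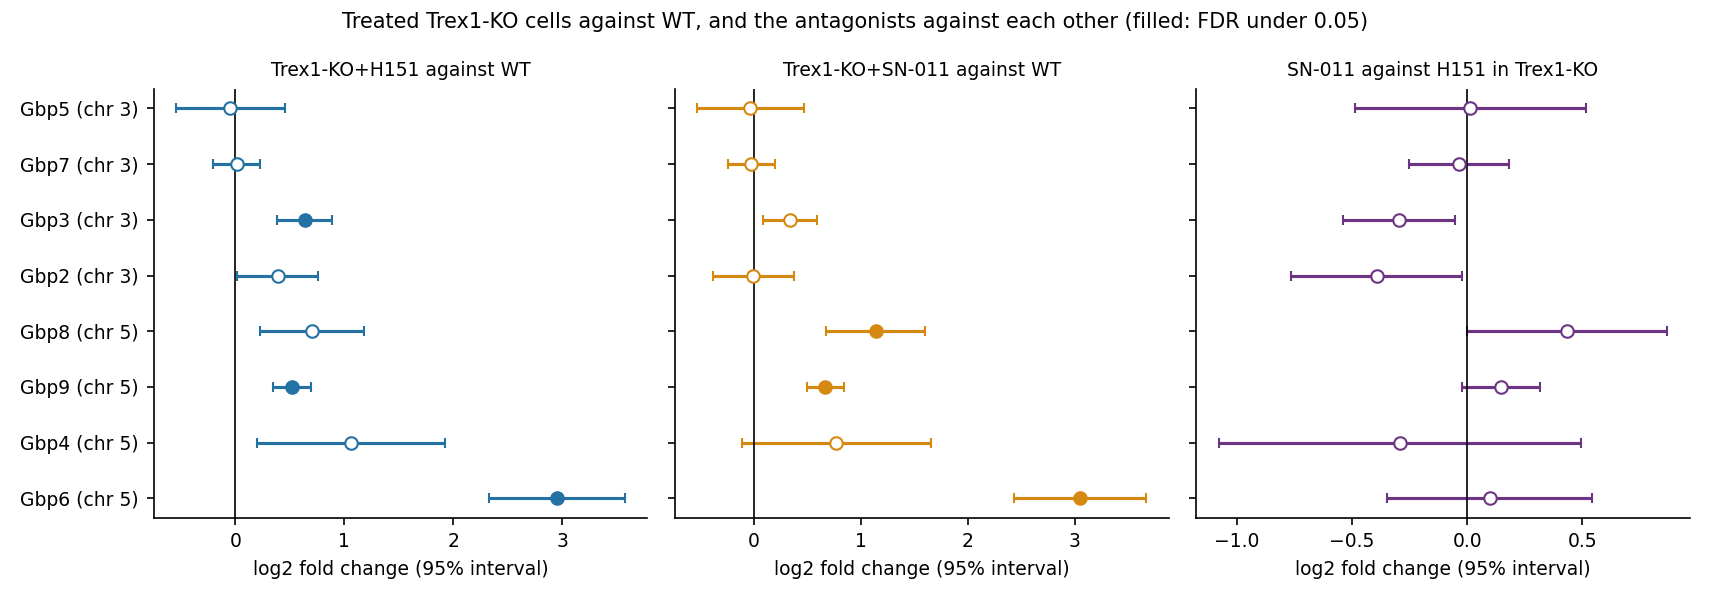
Log2 fold change (x axis) with its 95% interval for each GBP gene (y axis, grouped by chromosome) in Trex1-KO with H151 against WT, in Trex1-KO with SN-011 against WT, and between the compounds. Filled points passed an FDR of 0.05; Gbp5 and Gbp7 lie at 0 in the first 2 panels, Gbp6 lies near 3, and no point is filled in the third panel.

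The other genes of the pathway are described next, from ligands to effectors. Of the interferon genes, 3 were looked up. Ifnb1 had at most 2 counts and Ifng at most 1 in any library, under the floor of 3 counts (0.175 to 0.255 CPM), and Ifna4 had none. Of 9 tested receptors, kinases and feedback regulators, 4 were higher in Trex1-KO, and 1 fell with either compound. That was Usp18, a brake on type I interferon signalling, which rose by 2.63 ± 0.16 on the log2 scale (FDR = 5.72e-08), fell by 1.28 with H151 (FDR = 0.000116) and fell by 0.99 with SN-011 (FDR = 0.00092). Socs1, a feedback inhibitor of JAK kinases, rose by 1.34 ± 0.42 (FDR = 0.0444) and Jak2 by 0.33 ± 0.08 (FDR = 0.0121). Ifnar2, a chain of the type I receptor, rose by 0.24 ± 0.05 (FDR = 0.00881). The receptor genes Ifnar1, Ifngr1 and Ifngr2 gave log2 fold changes of 0.06, -0.04 and 0.15 in Trex1-KO, none past the test.

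Of the 11 genes for factors that act at interferon-response promoters, 9 were higher in Trex1-KO, and 6 were lower with each compound, with none in the opposite direction. The largest rises were those of Irf7 (2.62 ± 0.12, FDR = 7.16e-09), Batf2 (1.85 ± 0.16, FDR = 2.55e-06) and Stat2 (1.57 ± 0.07, FDR = 3.24e-09). Stat2 fell by 1.05 with H151 (FDR = 6.33e-06) and by 0.98 with SN-011 (FDR = 1.04e-05). Irf7 fell by 0.93 (FDR = 0.000324) and 0.75 (FDR = 0.002). The median log2 fold change of this list was 0.64 in Trex1-KO, -0.45 with H151 and -0.48 with SN-011.

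The immunity-related GTPases (IRGs), which share with GBPs the task of attacking pathogen vacuoles, were the other large group of effectors. Of 11 tested IRG genes 9 were higher in Trex1-KO, with a median log2 fold change of 1.88, and 9 were lower with each compound, with medians of -1.01 and -0.94. With H151, 8 were still higher than in WT, and 9 with SN-011, against 6.79% and 6.18% of all genes. Iigp1 rose most, by 3.46 ± 0.17 (FDR = 7.48e-09), from 16.0 to 176 CPM, followed by Tgtp2 (3.08 ± 0.13, FDR = 3.75e-09) and F830016B08Rik (2.68 ± 0.12, FDR = 3.75e-09). Tgtp2 fell by 1.57 with H151 (FDR = 8.52e-06) and by 1.43 with SN-011 (FDR = 2.03e-05), and Iigp1 by 1.56 (FDR = 2.82e-05) and 1.33 (FDR = 0.000101). Gm12250, which encodes Irgb10, a partner of GBPs on bacteria, fell by 1.33 (FDR = 0.000134) and 1.28 (FDR = 0.000207). The 2 that passed neither test were Irgq, an IRG relative, at -0.07 in Trex1-KO, and Tgtp1, which shares its sequence with Tgtp2 and had 7 to 17 counts.

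Of 9 other dynamin-like GTPases, 4 were higher in Trex1-KO, 3 of these were lower with H151 and 4 with SN-011. The antiviral genes Mx2 (2.19 ± 0.12, FDR = 2.87e-08) and Mx1 (2.15 ± 0.15, FDR = 2.25e-07) rose most, followed by Gvin1 (1.86 ± 0.23, FDR = 5.46e-05), a very large interferon-inducible GTPase. Mx1 fell by 1.70 with H151 (FDR = 1.71e-05) and by 1.48 with SN-011 (FDR = 5.05e-05), Mx2 by 1.45 (FDR = 1.13e-05) and 1.27 (FDR = 2.53e-05), and Gvin1 by 1.05 (FDR = 0.0147) and 1.01 (FDR = 0.0201). The predicted gene Gm4070 rose by 1.60 ± 0.19 in Trex1-KO (FDR = 3.99e-05) and fell by 1.21 with SN-011 (FDR = 0.00171). The housekeeping members, atlastins Atl1, Atl2 and Atl3 and the dynamins Dnm2 and Dnm1l, did not pass the test and lay between -0.04 and 0.05 in Trex1-KO.

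Downstream of the GBPs, 6 of 9 inflammasome and pyroptosis genes were higher in Trex1-KO and 1, Nlrc4, was lower (-0.39 ± 0.11, FDR = 0.021). Casp4, which encodes caspase-11, rose by 0.99 ± 0.13 (FDR = 0.000139), Aim2 by 0.60 ± 0.08 (FDR = 9.56e-05) and Casp1 by 0.58 ± 0.07 (FDR = 4.85e-05). Casp4 fell by 0.70 with H151 (FDR = 0.00916) and by 0.84 with SN-011 (FDR = 0.0026), and Nlrp3, a sensor, by 0.45 (FDR = 0.00245) and 0.40 (FDR = 0.0069). None of the other 7 passed with either compound. Among genes that place GBPs on membranes, the share called in Trex1-KO was near the 16.4% of all tested genes. Of 10 genes of ATG8 conjugation, Atg7 was higher (0.23 ± 0.07, FDR = 0.0359) and Map1lc3a lower (-0.43 ± 0.11, FDR = 0.0146) in Trex1-KO, and none passed with either compound. Of 5 CaaX prenylation enzymes, which attach the lipid anchors, Pggt1b was higher (0.30 ± 0.09, FDR = 0.0357), and none passed with either compound.

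The profiles of the members over the 8 libraries were alike but not equal. Pearson's r between log2 CPM of member pairs ran from 0.567 (Gbp2 and Gbp8) to 0.942 (Gbp5 and Gbp7), a description over libraries that share 4 groups. Among 10707 other genes whose log2 CPM averaged 2 or more, those most like the mean profile of the 8 were Gm12250 (r = 0.996), Trim21 (r = 0.995), which encodes an antibody receptor in the cytosol, Slfn5 (r = 0.993), Ifit2 (r = 0.993) and Sppl2a (r = 0.993), an intramembrane protease. Each had its highest level in Trex1-KO. Single members had other nearest genes. They were Aoah, a lipopolysaccharide hydrolase, for Gbp2 (r = 0.983), Setdb2 for Gbp3 (r = 0.993), Naip5 for Gbp4 (r = 0.979), the chemokine gene Cxcl10 for Gbp5 (r = 0.982), Nr1h3 for Gbp6 (r = 0.990), Sdc4 for Gbp7 (r = 0.985), Gpr108 for Gbp8 (r = 0.979) and Tmcc3 for Gbp9 (r = 0.996). Cxcl10, the gene nearest to Gbp5, rose by 2.14 ± 0.40 in Trex1-KO (FDR = 0.00179) and fell by 2.35 with H151 (FDR = 0.00497) and by 2.48 with SN-011 (FDR = 0.00341), back to 13.2 and 12.2 CPM against 15.7 CPM in WT. Nr1h3, which encodes the lipid receptor LXRα and is nearest to Gbp6, rose by 1.36 ± 0.12 (FDR = 1.8e-06), and its log2 fold changes of -0.39 with H151 (FDR = 0.106) and -0.43 with SN-011 (FDR = 0.0582) did not pass.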

How the data were processed

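RNA-Seq was performed on polyadenylated RNA of BMDMs, 2 libraries per group. The authors aligned the paired-end reads with HISAT2 and deposited raw counts per gene. The processing notes name HTSeq and build mm10, whereas the methods of the study name featureCounts. Counting strand and annotation release are not given in the sources used here. Symbols and positions came from GENCODE mouse release M21 (54495 of 54532 genes matched).

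Counts were tested with edgeR 4.0.16 in R 4.3.3. Genes were kept with filterByExpr (minimum count 10, minimum total 15) and scaled by TMM (factors 0.973 to 1.04). All 8 libraries entered 1 quasi-likelihood fit (biological coefficient of variation 0.0656), with 6 two-sided contrasts and Benjamini-Hochberg adjustment (FDR) over 14591 genes. Genes with an FDR under 0.05 are called. The SE was derived from the log2 fold change and the root of its F statistic and is approximate, and intervals are 95% intervals. The 2 libraries of each group differed by more than counting noise (chi-square per degree of freedom 3.16 to 6.28). Coding sequences (the longest per gene) were aligned globally with Biopython 1.88. The code of the fit was also run on simulated data, and no result given here rests on that run.

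The members, the gene lists, the markers and the rule for named genes were chosen with earlier results of these data known. Named were all members, up to 3 called genes per list and contrast with the largest change, the 5 genes most like the mean of the members and the gene most like each member. Genes outside this rule were named after their values were seen. A gene that the rule names is not reported here. Alternatives were other scalings, filters and tests, a replicate block, and leaving out each library.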

Additional observations from a re-analysis of the deposited data

How the results depend on the processing

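The counts of members called were stable for Trex1-KO against WT (8 in all alternatives). Leaving out 1 library each gave 8 to 8 members called for Trex1-KO against WT, 5 to 7 for H151 and 4 to 6 for SN-011 against vehicle, 0 to 1 for SN-011 against H151, and 3 to 5 (H151) and 3 to 4 (SN-011) for treated cells against WT. With every gene of at least 1 count tested, 1 member (Gbp2, FDR = 0.00862) was called for SN-011 against H151, 8 for H151 against vehicle (Gbp4 and Gbp8 added), 6 for H151 against WT (Gbp2, Gbp4 and Gbp8 added) and 4 for SN-011 against WT (Gbp3 added, FDR = 0.0327), and the counts over all genes rose to 525 with H151, 679 with SN-011 and 266 between the compounds, from 325, 340 and 23. FDRs of that edgeR fit are not comparable with those of the main fit. For Gbp9 in Trex1-KO against WT they were 1.35e-57 and 6.15e-08, at near-equal fold changes. The cause was not tested. Between the compounds DESeq2 called 38 genes and the edgeR exact test 84. The exact test also called Gbp8 for H151 against WT (FDR = 0.021). Over all genes, leaving out 1 library lowered the calls from 2390 to as few as 1556 (Trex1-KO against WT), from 1726 to 971 (H151 against WT), from 1714 to 909 (SN-011 against WT) and from 340 to 131 (SN-011 against vehicle), and moved those between the compounds from 2 without SN-011 replicate 1 to 291 without H151 replicate 2.

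Differences near 0 changed sign. Against WT with H151, the log2 fold change of Gbp7 was -0.047 under total counts and -0.0035 with genes of at least 1 count. Against WT with SN-011, that of Gbp2 was 0.0020 by DESeq2, 0.0026 by the exact test and 0.0032 with the replicate block. Leaving out single libraries moved Gbp5 from -0.44 to 0.44 and Gbp7 from -0.18 to 0.16 (H151 against WT), Gbp2 from -0.32 to 0.37, Gbp5 from -0.42 to 0.46 and Gbp7 from -0.058 to 0.0084 (SN-011 against WT), and Gbp4 from -0.55 to 0.062, Gbp5 from -0.17 to 0.23, Gbp6 from -0.094 to 0.29 and Gbp7 from -0.19 to 0.15 (SN-011 against H151). None of these was called in any fit. Over all alternatives for the members, 579 values kept direction and side of the threshold, 17 passed it newly, 8 lost it and 20 changed sign.

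The labels do not say what the replicate numbers stand for, and they were not taken to pair the libraries. The deviations of same-numbered libraries correlated at 0.194 (Trex1-KO and H151), -0.006 (Trex1-KO and SN-011) and -0.016 (H151 and SN-011) over genes. With the replicate block, Gbp8 was also called for H151 against WT (FDR = 0.0414), 44 genes were called between the compounds, and no other call of a member changed. Counting error limits Gbp4 and Gbp6 in WT most, at 11 to 37 counts.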

Other observations

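Other Gbp genes of the clusters stayed under the count filter. Gbp11, a polymorphic pseudogene on chromosome 5, had 4 and 4 counts in WT, 8 and 10 in Trex1-KO, 1 and 3 with H151 and 2 and 4 with SN-011. Gbp2b had at most 1 count in any library, Gbp10 at most 2 and Gm43302 at most 1. Gbp2b lies between Gbp3 and Gbp2 on chromosome 3, and its RefSeq promoter holds GAAA, any 2 bases, then GAAA on the reverse strand, beginning 137 bases before its start, as those of its expressed neighbours do.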
